A study of Mus musculus with 9 samples.

Results

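The genes described here encode cytosolic heat shock proteins and their cochaperones, the proteins that keep other proteins folded in the cytoplasm. They were chosen by name: the stress-inducible HSP70 genes Hspa1a and Hspa1b, the constitutive HSP70 gene Hspa8, the HSP110 gene Hsph1, the J-domain genes Dnajb1 and Dnaja1, the HSP90 gene Hsp90aa1, the small heat shock genes Hspb1 and Hspb8, and the cochaperone gene Bag3. Of these 10 genes, 9 had a probe that names no other gene, of 19938 such genes in all. Hspa1b had none, and only a probe that it shares with Hspa1a speaks for it. The cells were MA-10, an established line derived from a mouse Leydig cell tumour, which makes steroids when cyclic AMP rises. They were exposed for 1.5 h, in medium without serum, to 10 µM forskolin together with 1 mM AICAR (3 arrays), to 10 µM forskolin (3 arrays) or to the vehicle DMSO (3 arrays, called control). Forskolin switches on adenylyl cyclase and so raises cyclic AMP, and AICAR becomes, inside the cell, a nucleotide that resembles AMP and turns on the kinase AMPK, which senses low energy. Every AICAR array also carries forskolin, so AICAR is compared between cells that all received forskolin. The control titles name no treatment whereas their treatment field names DMSO. Nothing in the labels says whether replicates came from different dishes, and the p-values below may therefore reflect technical spread alone. In bulk RNA, fewer cells of a type and less RNA per cell cannot be told apart.

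HSP70 proteins bind and release exposed stretches of unfolded protein in a cycle driven by ATP. J-domain proteins such as DNAJB1 bring the client and start ATP hydrolysis, and nucleotide exchange factors such as HSPH1 and BAG3 let the client go. HSP90 takes over partly folded clients, among them steroid hormone receptors and kinases, and small heat shock proteins hold unfolded chains without using ATP. In many cells, heat shock factor 1 drives the inducible members of this network together when proteins misfold, by binding heat shock elements, repeats of the bases GAA and their reverse complement.

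Values are log2 summaries per probe, where a probe stands for a transcript cluster of the array, and a difference of 1 means a doubling. The threshold for a call was a Benjamini-Hochberg adjusted p of 0.05 in limma's moderated test, taken over all 19938 genes. The array medians lay between 7.14 and 7.19. All 6 measured Leydig cell markers (Star, Cyp11a1, Cyp17a1, Hsd3b1, Nr5a1 and Gata4) were above the array median on every array. Of the 22 measured markers of Sertoli, germ, macrophage, endothelial and peritubular cells, Sox9, Cd68 and Cdh5 were as well. The summed level of the 4 Sertoli markers, mostly Sox9, was 9.92 to 9.95 (log2) with AICAR, 10.16 to 10.25 with forskolin and 10.24 to 10.35 in control. That of the 5 macrophage markers was 8.57 to 8.72 with AICAR, 8.82 to 8.87 with forskolin and 8.76 to 8.78 in control. The cells are an established line, and these levels do not show that cells of other types were present. Whether these levels bear on the results below was not tested. Star, the cholesterol carrier of steroid synthesis and the response marker here, averaged 8.42 ± 0.05 with AICAR, 10.47 ± 0.12 with forskolin and 8.58 ± 0.03 in control (SD, n = 3 each).

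Of the 9 heat shock genes with a probe of their own, Hspa1a was called after forskolin, and Hspa1a and Dnajb1 with AICAR added to it. A gene that was not called may still have changed within its interval. After forskolin, 1 of 9 genes was called higher and none lower, where 0.692% of all genes were called, 0.497% as higher and 0.196% as lower. At an unadjusted p under 0.05 limma listed 2 of the 9 after forskolin, where it listed 7.27% of all genes. It listed 3 of 9 with AICAR added to forskolin, where it listed 24.1% of all genes, and 3 of 9 for forskolin with AICAR against control, where it listed 31.1%. For forskolin against control, the median difference of the 9 was 0.04, against 0.0034 for all genes. The 8 not called after forskolin had differences between −0.03 and 0.23, with 95% intervals that reached from −0.16 to 0.41. With AICAR added to forskolin, 2 of 9 were called lower and none higher, where 5.10% of all genes were called, 4.12% as lower and 0.978% as higher. The median of the 9 was −0.09, against 0.02 for all genes. Forskolin replicate 3 was the highest forskolin array for 8 of the 9 and the lowest for none. It was the lowest forskolin array for 30.11% of all genes. Whether this array bears on the differences of the 9 was not tested. Between forskolin with AICAR and control, 1 of 9 was called, as lower, where 8.72% of all genes were called, 5.68% as lower and 3.04% as higher. Each pair of these comparisons shares 1 group of arrays. The genes were chosen with earlier results of these data known, so the shares are a description only.

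**Figure D1:**
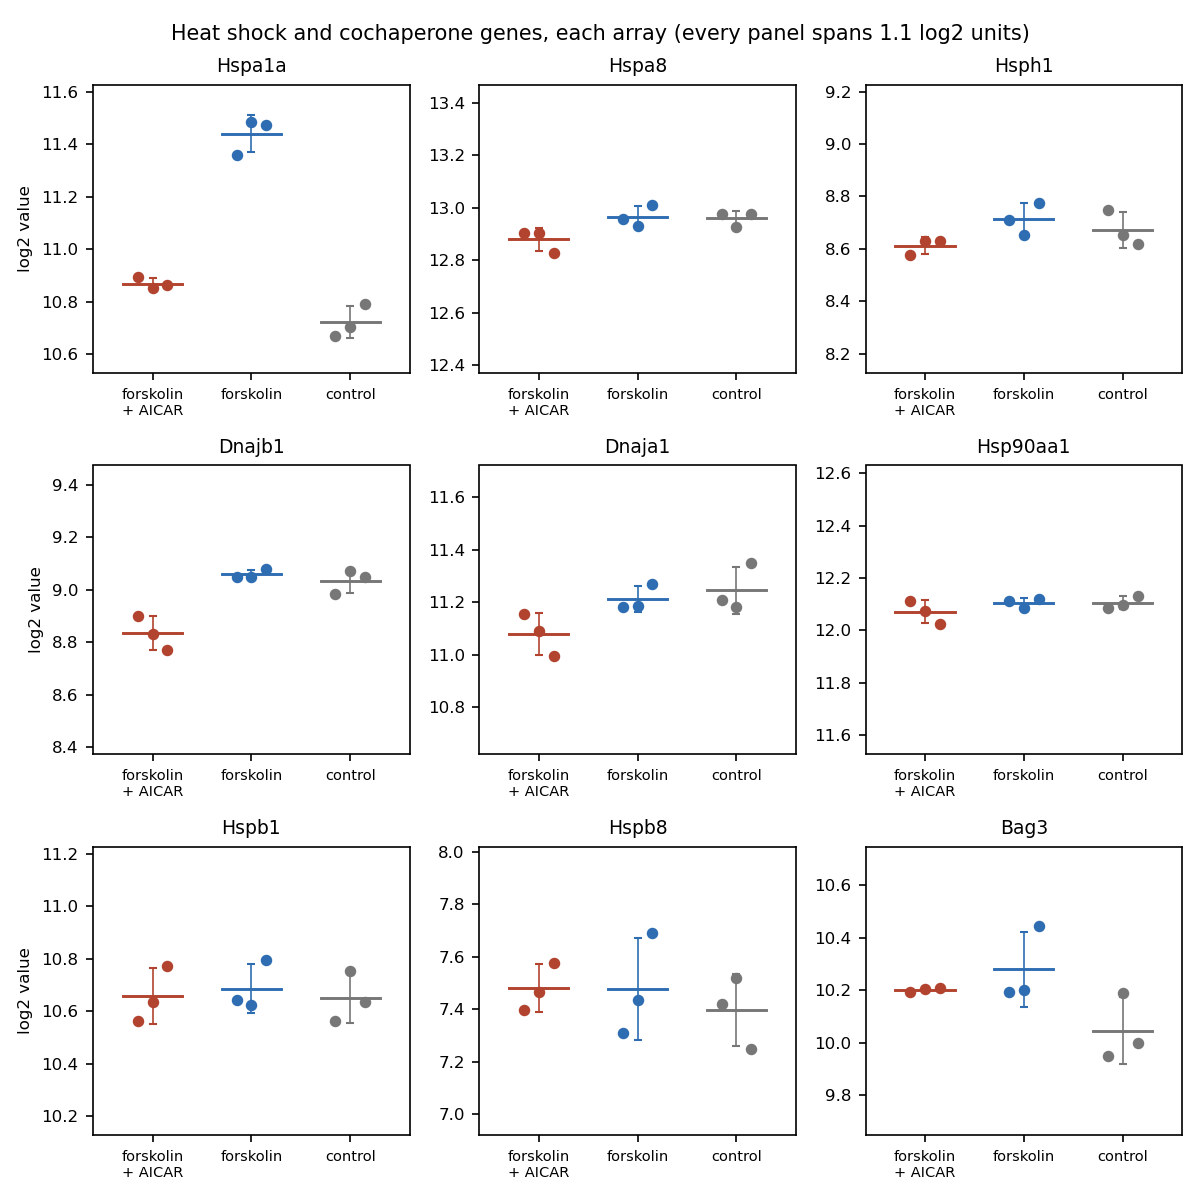
Log2 value (y axis, a span of 1.1 in every panel) of 9 heat shock and cochaperone genes on each array, with forskolin and AICAR, forskolin alone and control from left to right. Points are arrays, bars are means and whiskers are SD (n = 3). Hspa1a stands between 11.36 and 11.49 with forskolin and at most at 10.89 in the other groups, and the other genes show smaller steps.

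Hspa1a encodes the HSP70 that is made when cells are stressed, and it was the heat shock gene with the widest range. Its probe read 10.89, 10.85 and 10.86 with forskolin and AICAR, 11.36, 11.49 and 11.48 with forskolin, and 10.67, 10.71 and 10.79 in control. All 3 forskolin arrays were above every other array, and the AICAR arrays lay just above the highest control array. Hspa1a rose 1.65-fold with forskolin (log2 difference 0.72, SE 0.05, limma adjusted p = 9.7e-05). It was 1.49-fold lower with AICAR than with forskolin alone (−0.57, SE 0.05, limma adjusted p = 0.0003). Against control, the difference with forskolin and AICAR was 0.15 (SE 0.05, 95% interval 0.04 to 0.25, limma adjusted p = 0.0816). The first 2 calls held in all 19 alternatives, with a highest adjusted p of 0.0165 and 0.0186. The difference from control with forskolin and AICAR passed the threshold with quantile normalization (adjusted p = 0.0383), a trended robust prior (0.0442) and array weights (0.032). Star was likewise highest with forskolin, with a log2 difference of 1.89 (SE 0.06) for forskolin against control and −2.05 (SE 0.06) for AICAR added to forskolin. Unlike Hspa1a, its arrays with forskolin and AICAR lay below the control arrays (−0.16, SE 0.06, limma adjusted p = 0.106).

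The near-identical neighbour Hspa1b, also stress-inducible, can be seen only through the probe it shares with Hspa1a. That probe read 11.81 on each of the 3 arrays with forskolin and AICAR, 12.18, 12.19 and 12.20 with forskolin, and 11.56, 11.63 and 11.65 in control. The 3 groups did not overlap, and they stood in the same order as on the Hspa1a probe. In a fit over all 35557 probes it rose with forskolin by 0.58 (SE 0.03, limma adjusted p = 0.000477), fell with AICAR added by 0.38 (SE 0.03, limma adjusted p = 0.00175), and stayed 0.20 above control with both (SE 0.03, limma adjusted p = 0.0193). The last call was lost without control replicate 1 or 2 or AICAR replicate 2 (adjusted p = 0.0589, 0.055 and 0.0676). The other calls on this probe held without any single array, but not when number 3 of every group was left out (adjusted p = 0.07 and 0.0584). The AICAR values of this probe are identical as deposited, as they are for 0.712% of all probes in that group. Its own spread there is therefore not informative. The fit pools the spread of the 3 groups, so these identical values lowered the error behind the p-values of this probe. By how much was not tested. How much of either probe's signal comes from Hspa1a and how much from Hspa1b was not tested.

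On chromosome 17 of the mouse assembly GRCm38.p6, RefSeq places Hspa1b, Hspa1a and Hspa1l next to each other, with no gene between them. Hspa1l encodes an HSP70 known in mouse from developing sperm cells. Its start site lies 547 bases from that of Hspa1a, and the pair is read in opposite directions. Hspa1l read 7.14, 6.98 and 7.21 with forskolin and AICAR, 7.75, 7.86 and 7.66 with forskolin, and 7.06, 7.19 and 7.21 in control. The forskolin arrays again stood above all others, while the AICAR and control arrays overlapped. Hspa1l rose 1.52-fold with forskolin (0.60, SE 0.07, limma adjusted p = 0.0047) and was 1.57-fold lower with AICAR added (−0.65, SE 0.07, limma adjusted p = 0.00124). Its difference between forskolin with AICAR and control was −0.05 (limma adjusted p = 0.678). The forskolin call was lost when number 3 of every group was left out (adjusted p = 0.0753), and under no single array. All 3 probes of this cluster were therefore called in both comparisons. Outside the forskolin group the Hspa1l probe read near the array medians of 7.14 to 7.19, far below the Hspa1a probe. Whether any of its signal comes from Hspa1a or Hspa1b was not tested, so the 3 probes may not be separate readings.

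**Figure D2:**
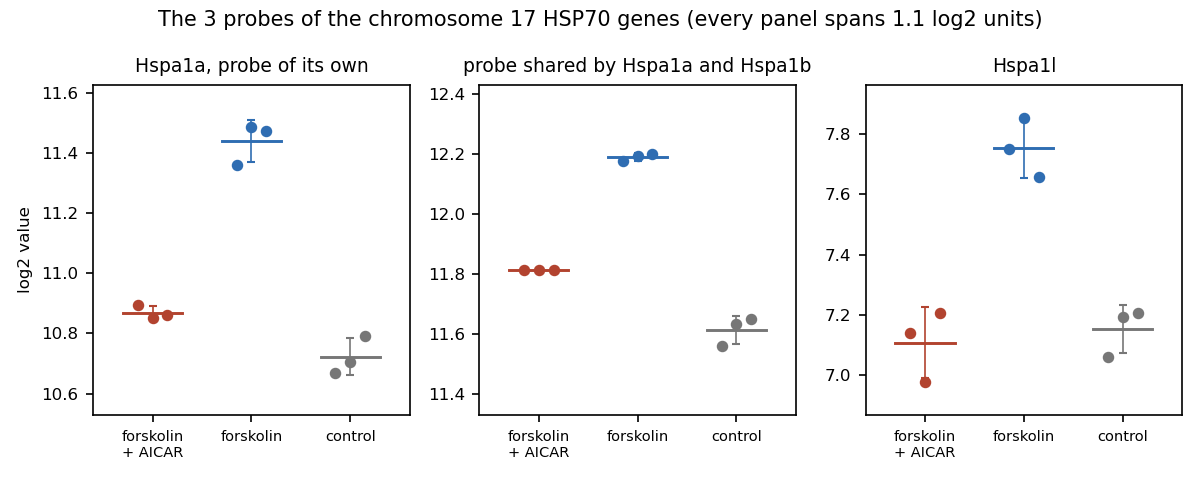
Log2 value (y axis, a span of 1.1 in every panel) of the Hspa1a probe, the probe shared by Hspa1a and Hspa1b, and the Hspa1l probe on each array, with forskolin and AICAR, forskolin alone and control from left to right. Points are arrays, bars are means and whiskers are SD (n = 3). On all 3 probes the forskolin arrays stand above the other 6, and on the shared probe the AICAR arrays lie together at 11.81, above the control arrays.

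The stretches before these start sites are printed because the probes of these neighbours were called in both comparisons, and that of Dnajb1 because it was called in both comparisons with AICAR. Each is the 250 bases upstream of the gene's outermost RefSeq start site on GRCm38.p6, 5′ to 3′ on the gene's own strand. They are chr17:34972157-34972406 (minus) for Hspa1a, chr17:34959239-34959488 (minus) for Hspa1b, chr17:34972453-34972702 (plus) for Hspa1l and chr8:83607925-83608174 (plus) for Dnajb1. Capitals mark matches, on either strand, to a heat shock pair (GAANNTTC or TTCNNGAA) or to TGACG, a short form of the cyclic AMP response element TGACGTCA.
Hspa1a: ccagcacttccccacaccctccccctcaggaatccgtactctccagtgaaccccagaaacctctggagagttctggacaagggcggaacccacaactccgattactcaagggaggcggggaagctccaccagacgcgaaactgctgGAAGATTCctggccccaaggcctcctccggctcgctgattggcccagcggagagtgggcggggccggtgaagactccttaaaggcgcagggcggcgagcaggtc
Hspa1b: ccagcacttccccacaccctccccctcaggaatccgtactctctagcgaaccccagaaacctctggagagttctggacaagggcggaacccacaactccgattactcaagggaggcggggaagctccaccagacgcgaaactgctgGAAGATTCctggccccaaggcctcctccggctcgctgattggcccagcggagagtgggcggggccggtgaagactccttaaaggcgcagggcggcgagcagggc
Hspa1l: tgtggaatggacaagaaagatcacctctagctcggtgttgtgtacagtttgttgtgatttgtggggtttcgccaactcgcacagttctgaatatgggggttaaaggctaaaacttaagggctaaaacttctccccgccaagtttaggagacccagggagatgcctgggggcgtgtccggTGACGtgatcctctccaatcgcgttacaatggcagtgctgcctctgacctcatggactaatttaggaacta
Dnajb1: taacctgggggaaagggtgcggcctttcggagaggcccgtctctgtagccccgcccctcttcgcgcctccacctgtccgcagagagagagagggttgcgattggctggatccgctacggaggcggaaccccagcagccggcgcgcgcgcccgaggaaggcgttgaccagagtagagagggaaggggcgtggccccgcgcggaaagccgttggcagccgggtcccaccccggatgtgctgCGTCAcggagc

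The Hspa1a and Hspa1b stretches differed at 3 of 250 bases (98.8% the same). Both held 1 match to GAANNTTC, at −104 to −97 from the start site, and none to TGACG. Hspa1l held no heat shock pair and 1 match to TGACG, at −71 to −67 from its start site. Dnajb1 held no heat shock pair and 1 match to TGACG at −11 to −7 from its start site. Of 27025 such stretches in the RefSeq table, 6.79% held GAANNTTC, 7.18% TTCNNGAA and 17.8% TGACG. The longer run of GAANNTTC followed by NNGAA, which contains GAANNTTC and occurs in 0.403% of them, and the full TGACGTCA, which contains TGACG and occurs in 1.6%, were in none of the stretches of the 8 members found in the table or of Hspa1l. Among the other members, Dnaja1 held 1 match and Hspb1 2 matches to GAANNTTC, Hsph1 held 1 to TTCNNGAA, Hspb1 held 1 to TGACG, and Hspb8 and Bag3 held none of these. The table held no entry used here for Hspa8 and Hsp90aa1. These matches are letters in a window and say nothing about binding.

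By the distance over both log2 differences, the genes nearest to Hspa1a among the 88 called after forskolin and again with AICAR were Usp2, Sema7a, Hspa1l, Gadd45b and Smim3. Usp2, a deubiquitinase, was closest, at 0.68 with forskolin against control and −0.61 with AICAR against forskolin. Sema7a, a membrane-bound semaphorin, had differences of 0.82 and −0.62, Gadd45b, a growth arrest and stress gene, 0.58 and −0.62, and Smim3 0.55 and −0.59. Of those 88 genes, 72 were higher after forskolin and lower with AICAR, so that this order of groups was the usual one among them. Both comparisons use the forskolin arrays, and the distance is a description over 3 group means.

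Hspa8, the HSP70 that cells make all the time, did not pass the test in any comparison. It read 12.90, 12.90 and 12.83 with forskolin and AICAR, 12.96, 12.93 and 13.01 with forskolin, and 12.97, 12.93 and 12.97 in control. The AICAR arrays lay below the other 6 by a small step. The difference was 0.0068 for forskolin against control (95% interval −0.08 to 0.10, limma adjusted p = 0.995) and −0.09 for AICAR added to forskolin (−0.18 to 0.0027, limma adjusted p = 0.218). Its other single-symbol probes gave −0.14 and −0.11 for AICAR added to forskolin, neither of them called over all probes.

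Another pair of probes names Hspa8 together with Snord14c and Snord14d, small nucleolar RNAs that guide ribosomal RNA methylation and are encoded in introns of Hspa8. The first of the pair read 9.87, 9.71 and 9.55 with forskolin and AICAR, 10.26, 10.13 and 10.13 with forskolin, and 10.32, 10.26 and 10.37 in control. The second read 9.88, 9.70 and 9.66 with forskolin and AICAR, 10.26, 10.06 and 10.13 with forskolin, and 10.33, 10.26 and 10.35 in control. On both, every AICAR array was below every other array. In the fit over all probes they fell with AICAR added to forskolin by 0.46 (SE 0.08, limma adjusted p = 0.0224) and 0.41 (SE 0.07, limma adjusted p = 0.0216). Against control, forskolin with AICAR gave −0.61 (limma adjusted p = 0.00713) and −0.565 (limma adjusted p = 0.00552), while forskolin alone gave −0.15 and −0.16, neither called (limma adjusted p = 0.838 and 0.756). The AICAR calls against forskolin were lost without forskolin replicate 1 or 3 or AICAR replicate 2 on both probes. They were also lost without forskolin replicate 2 on the first or AICAR replicate 3 on the second. In these fits the limma adjusted p lay between 0.0653 and 0.0865. Without number 3 of every group it was 0.148 and 0.234. The calls against control were then lost as well (limma adjusted p = 0.0901 and 0.12). The difference between these probes and the single-symbol Hspa8 probes was not tested, and the files do not say which of the 3 named RNAs they read.

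**Figure D3:**
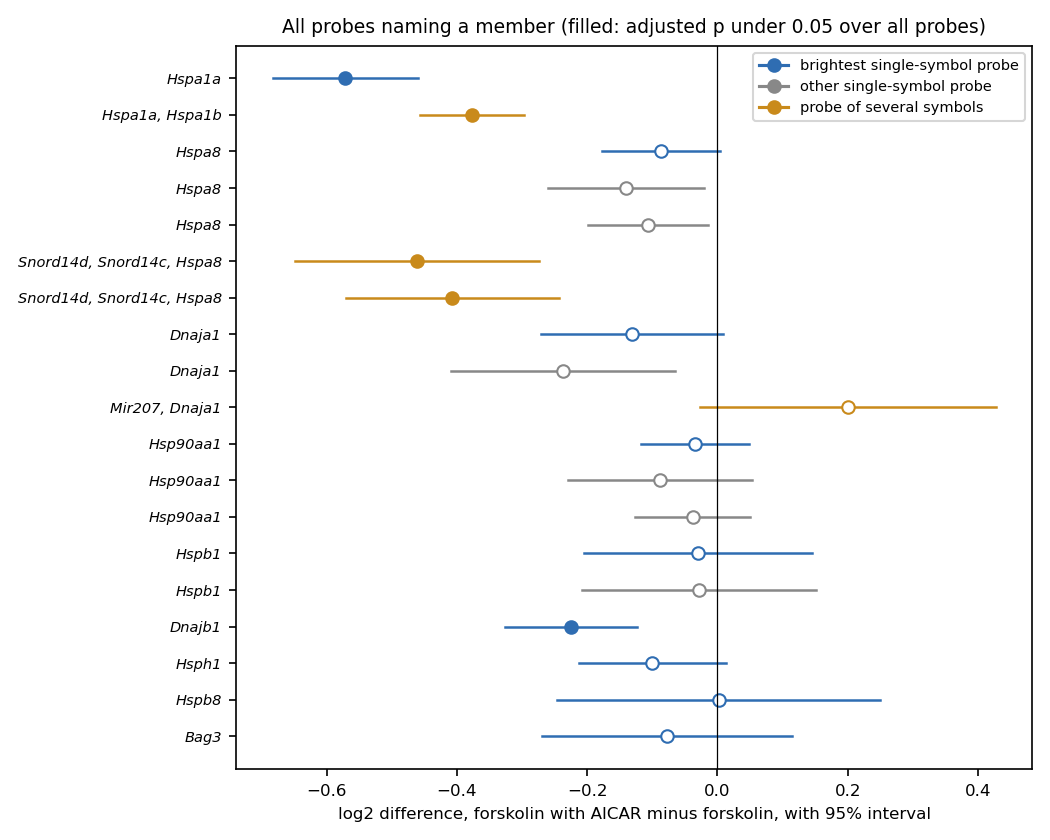
Log2 difference between forskolin with AICAR and forskolin alone (x axis, point) with its 95% interval (line) for all 19 probes that name a heat shock member, grouped by the symbols they carry. Blue is the brightest single-symbol probe of a gene, grey another single-symbol probe, and orange a probe of several symbols, with filled points called over all probes. The 2 probes shared with Snord14c and Snord14d lie at −0.46 and −0.41, and the 3 single-symbol Hspa8 probes between −0.14 and −0.09.

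Hsph1, an HSP110 that releases nucleotide from HSP70, read 8.58, 8.63 and 8.63 with forskolin and AICAR, 8.71, 8.65 and 8.78 with forskolin, and 8.75, 8.65 and 8.62 in control. The AICAR arrays lay below the forskolin arrays and within reach of the control arrays. The difference was 0.04 for forskolin against control (95% interval −0.07 to 0.15) and −0.10 for AICAR added (−0.21 to 0.0076, limma adjusted p = 0.233).

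Of the J-domain partners, Dnajb1, the main heat-inducible one in the cytosol, was lower with forskolin and AICAR than in either other group. It read 8.90, 8.83 and 8.77 with forskolin and AICAR, 9.05, 9.05 and 9.08 with forskolin, and 8.98, 9.07 and 9.05 in control. Every AICAR array was below every other array, and the forskolin and control arrays overlapped. Dnajb1 was 1.17-fold lower with AICAR than with forskolin (−0.22, SE 0.04, limma adjusted p = 0.0186) and 1.15-fold lower than in control (−0.20, SE 0.04, limma adjusted p = 0.0239). Forskolin alone differed from control by 0.02 (95% interval −0.07 to 0.12, limma adjusted p = 0.966). The first call was lost without forskolin replicate 1, 2 or 3 (adjusted p = 0.0567, 0.0627 and 0.0735) or AICAR replicate 2 (0.0672). The second was lost without control replicate 2 or 3 (adjusted p = 0.0833 and 0.0895) or AICAR replicate 2 or 3 (0.0779 and 0.0575), and also with quantile normalization (0.0613). The Dnajb1 difference itself stayed between −0.26 and −0.14 over all alternatives of both comparisons with AICAR.

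Dnaja1, a J-domain protein that carries a farnesyl anchor, read 11.16, 11.09 and 10.995 with forskolin and AICAR, 11.18, 11.18 and 11.27 with forskolin, and 11.21, 11.18 and 11.35 in control. Its AICAR arrays were also the lowest of the 9, but by a margin smaller than their own range. The difference was −0.13 for AICAR added to forskolin (95% interval −0.26 to −0.0011, limma adjusted p = 0.205) and −0.17 for forskolin with AICAR against control (limma adjusted p = 0.0984). The second would be called without AICAR replicate 1 (adjusted p = 0.0423) and with array weights (0.0405). It would also be called with the mean of the gene's single-symbol probes (−0.30, limma adjusted p = 0.02). A dimmer probe of Dnaja1 read 9.40, 9.38 and 9.13 with forskolin and AICAR, 9.56, 9.53 and 9.55 with forskolin, and 9.73, 9.67 and 9.82 in control, with no overlap among the 3 groups. In the fit over all probes it was lower with forskolin and AICAR than in control by a log2 difference of −0.43 (SE 0.07, limma adjusted p = 0.0186), and its difference between AICAR added and forskolin alone was −0.24 (limma adjusted p = 0.139). For AICAR added to forskolin, the probe that also names Mir207 differed in sign from both single-symbol probes, at 0.20 (SE 0.10, limma adjusted p = 0.281). Which of its named RNAs it reads was not tested.

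Hsp90aa1, the inducible cytosolic HSP90, was not called in any comparison. It read 12.11, 12.08 and 12.03 with forskolin and AICAR, 12.11, 12.09 and 12.12 with forskolin, and 12.09, 12.10 and 12.13 in control. The groups overlapped throughout. The difference for AICAR added to forskolin was −0.03 (95% interval −0.12 to 0.05, limma adjusted p = 0.568), and that for forskolin against control had an interval of −0.08 to 0.08. Its other probes gave −0.09 and −0.04 for AICAR added to forskolin.

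Both small heat shock genes were more variable between arrays than between groups. Hspb1, which encodes HSP25 in mouse and binds unfolded chains and actin, read 10.56, 10.64 and 10.77 with forskolin and AICAR, 10.64, 10.62 and 10.79 with forskolin, and 10.56, 10.75 and 10.64 in control. Hspb8, the partner of BAG3 in selective autophagy, read 7.40, 7.47 and 7.58 with forskolin and AICAR, 7.31, 7.44 and 7.69 with forskolin, and 7.42, 7.52 and 7.25 in control. Within each gene the 3 groups overlapped fully. None of their differences was called, with limma adjusted p between 0.583 and 0.992. The intervals for Hspb8 reached from −0.22 to 0.31 over the 3 comparisons, so a change of that size could not be seen here.

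Bag3, which ties HSP70 to small heat shock proteins and sends clients to autophagy, read 10.19, 10.21 and 10.21 with forskolin and AICAR, 10.19, 10.20 and 10.45 with forskolin, and 9.95, 10.19 and 10.00 in control. All treated arrays stood above the control arrays, but control replicate 2 lay almost level with the lowest of them. The difference was 0.23 for forskolin against control (95% interval 0.06 to 0.41, limma adjusted p = 0.431) and 0.16 for forskolin with AICAR against control (limma adjusted p = 0.201). The difference for forskolin against control was 0.15 without forskolin replicate 3, the highest array, and 0.13 without number 3 of every group, and it was called in none of the alternatives. AICAR added to forskolin gave −0.08 (−0.25 to 0.10). Counting arrays alone, 2 of 9 genes, Hspa1a and Bag3, had forskolin arrays that all lay above control, where 14.0% of all genes did not overlap, 6.85% with forskolin above and 7.13% with it below. Likewise 5 of 9, namely Hspa1a, Hspa8, Hsph1, Dnajb1 and Dnaja1, had AICAR arrays all below the forskolin arrays, where 23.6% of all genes did not overlap 12.2% in that direction and 11.5% in the other. Against control, the arrays with forskolin and AICAR were all above for 2 of 9 (Hspa1a and Bag3) and all below for 3 (Hspa8, Dnajb1 and Dnaja1), where 29.5% of all genes did not overlap, 15.2% above and 14.3% below.

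**Figure D4:**
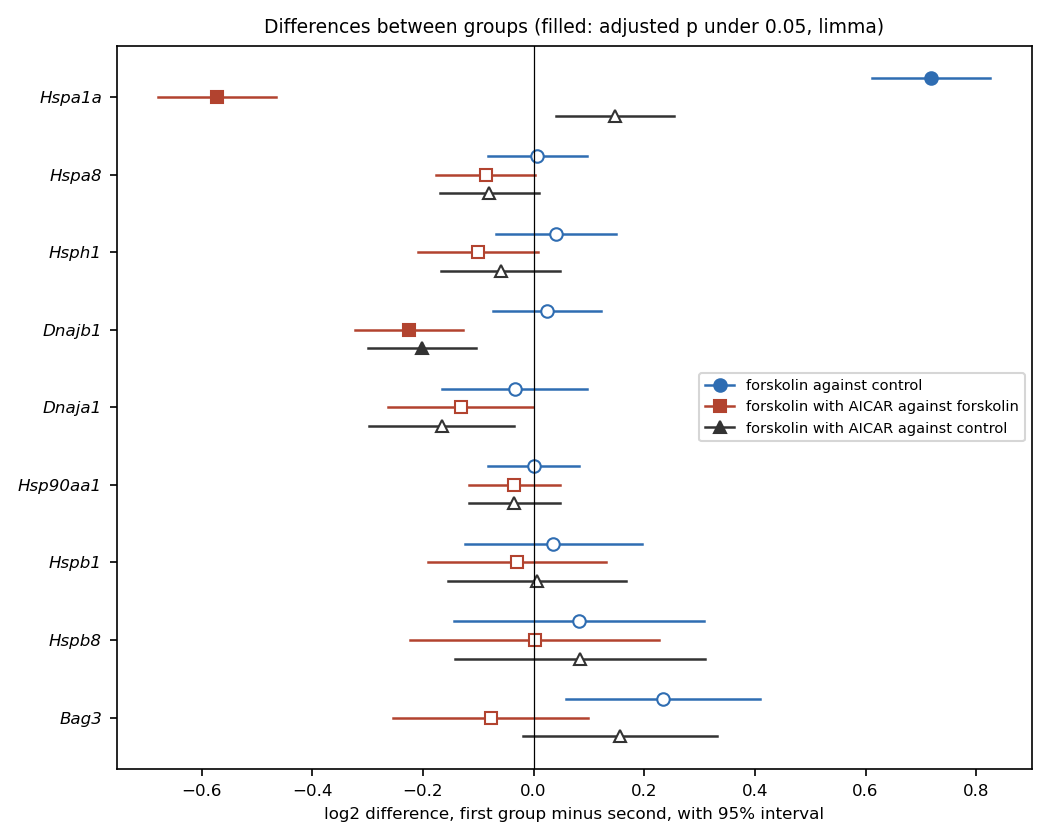
Log2 difference (x axis, point) with its 95% interval (line) of the 9 genes in the 3 comparisons, forskolin against control (circles), forskolin with AICAR against forskolin (squares) and forskolin with AICAR against control (triangles). Filled points were called in limma. Hspa1a lies at 0.72 and −0.57 in the first 2 comparisons, Dnajb1 at −0.22 and −0.20 in the comparisons with AICAR, and the other points are open.

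The rest of the chaperone network was examined through 10 lists with 102 measured genes. After forskolin, limma called 1 of these 102, Hspa1l, as higher and none as lower (0.980%, where 0.692% of all genes were called), and their median difference was 0.0039. With AICAR added to forskolin, 5 were called lower and 1 higher (5.88%, where 5.10% of all genes were called), and the median was −0.01, against 0.02 for all genes. By list, these were 2 of 8 genes listed as other HSP70 and HSP110 genes (Hspa1l and Hspa2) and 1 of 12 HSP90 cochaperones (Ppid). They were also 1 of 16 genes listed as other J-domain genes (Dnajb5) and 1 of 6 other heat shock factor targets (Mt1). The last was 1 of 17 chaperones of the endoplasmic reticulum (Sil1, the one that was higher). Between forskolin with AICAR and control, 3 of the 102 were called lower (Ppid, Dnajb5 and Mt1) and 1 higher (Sil1). That was 3.92%, where 8.72% of all genes were called, and each of these calls was lost in some alternatives. No gene was called after forskolin or with AICAR added in 5 lists: the 7 other BAG proteins and HSP70 factors, the 7 other small heat shock proteins, the 6 heat shock factors and regulators, the 14 chaperonin and prefoldin genes and the 9 mitochondrial chaperones. Of these 43 genes limma gave 2 after forskolin and 5 with AICAR added an unadjusted p under 0.05, where 7.27% and 24.1% of all genes had one. Hsf1, the gene of heat shock factor 1, was not among the 6 measured factors and regulators. Hsp90ab1 was likewise not among the 12 measured genes of the HSP90 list, so neither gene is described here. All 7 other small heat shock genes had a positive difference with AICAR added, from 0.01 to 0.28, with none called. Of all 19938 genes, 11804 had a positive difference in that comparison. Dnajb9, a J-domain protein of the endoplasmic reticulum picked here after its values were seen, had a difference of −0.59 with AICAR added (SE 0.16, limma adjusted p = 0.0698), which missed the threshold.

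Hspa2, an HSP70 known from mouse spermatocytes, read 8.78, 8.77 and 8.84 with forskolin and AICAR, 8.91, 8.98 and 9.02 with forskolin, and 8.91, 8.92 and 8.95 in control (AICAR added, −0.17, SE 0.04, limma adjusted p = 0.0429). Ppid, a cyclophilin that docks on HSP90 in steroid receptor complexes, read 8.91, 8.84 and 8.79 with forskolin and AICAR, 9.10, 9.08 and 9.28 with forskolin, and 9.15, 9.14 and 9.15 in control (−0.30, SE 0.06, limma adjusted p = 0.016). On both genes the AICAR arrays lay below all others. Dnajb5, a J-domain protein of the same class as DNAJB1, read 7.51, 7.62 and 7.54 with forskolin and AICAR, 7.74, 7.83 and 7.81 with forskolin, and 7.74, 7.74 and 7.75 in control (−0.24, SE 0.04, limma adjusted p = 0.0129). Mt1, a metal-binding metallothionein, averaged 13.33 ± 0.05 with forskolin and AICAR, 13.53 ± 0.03 with forskolin and 13.48 ± 0.01 in control (SD, n = 3; −0.20, SE 0.04, limma adjusted p = 0.0178). Sil1, which exchanges nucleotide on the endoplasmic HSP70, averaged 9.89 ± 0.03 with forskolin and AICAR, 9.72 ± 0.03 with forskolin and 9.72 ± 0.05 in control (SD, n = 3; 0.17, SE 0.04, limma adjusted p = 0.0445). Each of these 5 calls was lost without some single arrays. They were control replicate 1, 2 or 3, forskolin replicate 2 or 3 or AICAR replicate 2 for Hspa2 (adjusted p up to 0.142), and AICAR replicate 2 or 3 for Ppid (up to 0.0649). They were forskolin replicate 2 or 3 for Dnajb5 (up to 0.0614) and for Mt1, which also needed AICAR replicate 2 (up to 0.0702), and any but control replicate 3 and AICAR replicate 1 for Sil1 (up to 0.145).

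**Figure D5:**
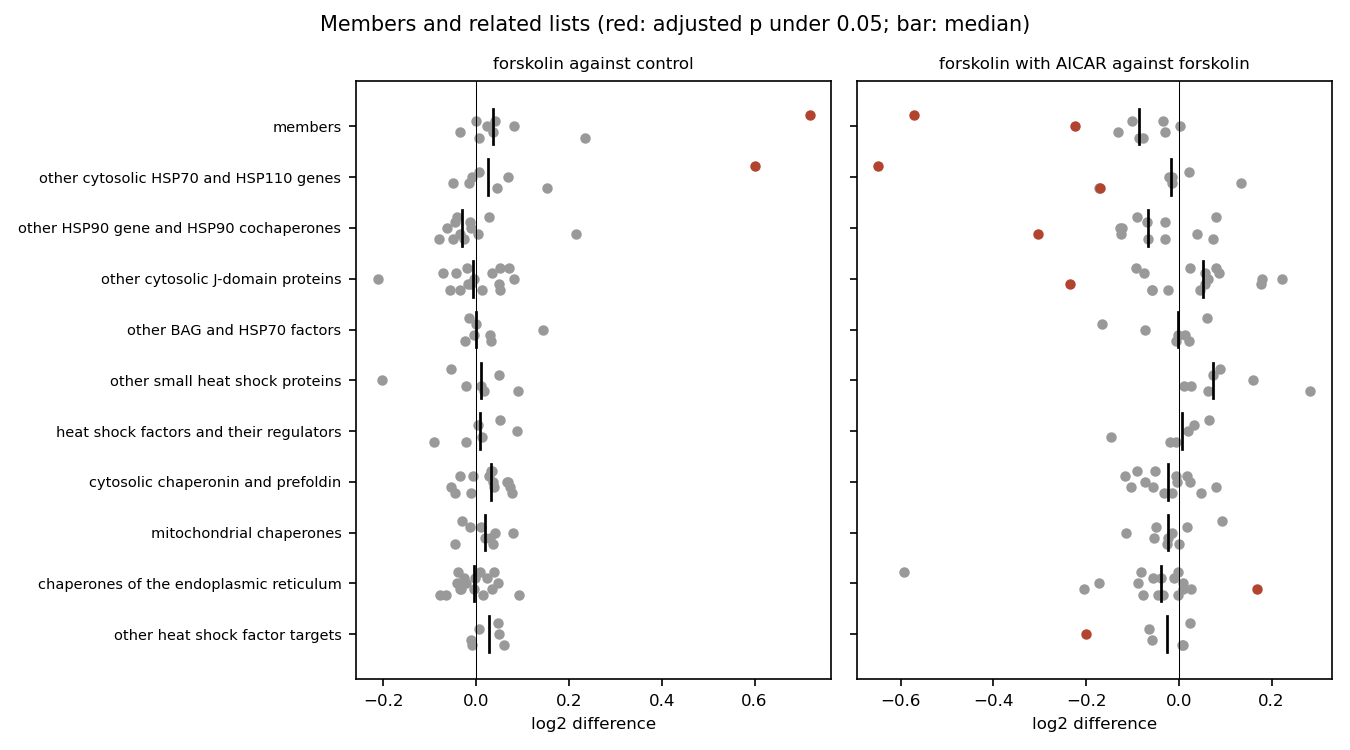
Log2 difference (x axis) of each measured gene of the members and of 10 related chaperone lists (rows), for forskolin against control on the left and forskolin with AICAR against forskolin on the right. Points are genes, red where called in limma, and black bars are list medians. After forskolin the red points are Hspa1a at 0.72 and Hspa1l at 0.60, and with AICAR the list medians lie between −0.09 and 0.07.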

How the data were processed

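Total RNA of 9 MA-10 samples, 3 for each group, was labelled with an Affymetrix whole-transcript kit, per the labels. The authors deposited log2 values per probe. Partek and RMA are the tools listed in the submitters' processing notes, and settings and genome build are not given in the sources used here. Of 35557 probes, 21789 carried 1 gene symbol. For a gene with several, the brightest by mean over the 9 arrays was kept, leaving 19938 genes with no filter on dim probes. A single linear model of the 9 arrays was fitted with limma 3.58.1 under R 4.3.3, two-sided, with Benjamini-Hochberg adjustment per comparison, after the code was tested on simulated data. Probes of several symbols were tested in a fit over all probes. With 3 arrays a group, precision is limited. The genes named were the members, the called genes of each related list (at most 3), Star, and the 5 genes nearest to a member called in both of the first comparisons. Members and lists were chosen with earlier results of these data known. Promoters are from RefSeq (GRCm38.p6). Summaries used pandas 2.3.3 and numpy 2.4.6 in Python 3.11.15, and plots matplotlib 3.10.9. The alternatives were other normalizations, priors, weights, filters, thresholds, probe rules, a replicate block and arrays left out. Same-numbered arrays were not treated as pairs: their deviations from the group means correlated at −0.41 to 0.33, and the labels name no shared batch.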

Additional observations from a re-analysis of the deposited data

How the results depend on the processing

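Hspa1a kept its call and direction after forskolin, and with AICAR added to it, in all 19 alternatives, with differences of 0.69 to 0.76 and −0.61 to −0.55. The number of members called was 1 in every alternative for forskolin against control. With AICAR added to forskolin it was 2, and 1 with a replicate block, in a fit of only the 2 groups compared, and at an adjusted p under 0.01; with arrays left out it was 1 to 2. For forskolin with AICAR against control it was 1, but 0 with the replicate block, with 2 groups only and at 0.01, 2 with a trended robust prior and with the mean of a gene's probes, 3 with array weights and at 0.1, and 0 to 2 with arrays left out. With quantile normalization it was also 1, but the gene called was Hspa1a (adjusted p = 0.0383) and not Dnajb1 (0.0613). The block moved the counts through Dnajb1 (adjusted p = 0.0667 and 0.0699) and changed no other member's call. It also ended the call of the probe of Hspa1a and Hspa1b for forskolin with AICAR against control (adjusted p = 0.0681), and calls of Hspa2, Ppid, Dnajb5, Sil1 and Mt1 in a comparison with AICAR. The count of all genes called varied more, from 43 to 436 of a main 138, 241 to 5729 of 1017 and 377 to 6619 of 1739. Sign changes were seen only in differences that were not called. Forskolin against control was reversed for Hspa8 (−0.0028 with quantile normalization, −0.024 with median centring, −0.0080 with array weights), Dnajb1 (−0.0069, centring), Hsp90aa1 (0.016, mean of probes), Hspb1 (−0.026, weights) and Hspb8 (−0.0033, weights). Forskolin with AICAR against control was reversed for Hsph1 (0.018, quantile) and Hspb1 (−0.0040, centring, and −0.030, weights). With single arrays left out, forskolin against control spanned −0.0159 to 0.0251 for Hspa8, −0.0019 to 0.0423 for Dnajb1, −0.0668 to 0.0168 for Dnaja1, −0.0105 to 0.0135 for Hsp90aa1, −0.0178 to 0.0877 for Hspb1 and −0.0244 to 0.1665 for Hspb8. AICAR added to forskolin spanned −0.0877 to 0.0238 for Hspb1, −0.0831 to 0.1078 for Hspb8 and −0.1215 to 0.0049 for Bag3. Forskolin with AICAR against control spanned −0.0517 to 0.0577 for Hspb1 and −0.0960 to 0.0187 for Hspa1l. Without number 3 of every group, forskolin against control was −0.0081 for Hspa8, −0.0189 for Hsph1, 0.0060 for Hsp90aa1, −0.0259 for Hspb1 and −0.0979 for Hspb8. AICAR added to forskolin was then 0.0020 for Bag3, and forskolin with AICAR against control 0.0018 for Hsp90aa1, −0.0598 for Hspb1 and −0.0384 for Hspb8. The cause was not tested. Leaving number 3 of every group out, and the fit over all probes, were chosen after the data were seen. All 9 members passed a filter at a mean of 6.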
